A study of Mus musculus with 8 samples.

Results

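The genes described here were 31 genes of the peroxisome, measured by bulk RNA sequencing in the gastrocnemius, the large calf muscle, of aged mice with or without deletion of *Nox4* in muscle. They were listed by name. The set held 13 peroxins, the *Pex* genes whose products build the organelle, and 18 genes for peroxisomal enzymes and membrane proteins of lipid metabolism. All 31 had a row among the 32390 rows of the count table, and all 31 passed the filter on low counts that left 12725 rows for testing. The peroxins were *Pex2*, *Pex3*, *Pex5*, *Pex6*, *Pex7*, *Pex10*, *Pex11a*, *Pex11g*, *Pex13*, *Pex14*, *Pex16*, *Pex19* and *Pex26*. The other genes were *Acox3*, *Hsd17b4*, *Ehhadh*, *Acaa1a*, *Scp2*, *Amacr*, *Pecr*, *Decr2*, *Ech1*, *Dhrs4*, *Phyh*, *Hacl1*, *Abcd2*, *Abcd3*, *Abcd4*, *Slc25a17*, *Pxmp2* and *Pxmp4*.

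Peroxisomes import their enzymes from the cytosol already folded. Receptors bind a targeting signal on the cargo, dock at the membrane, release the cargo inside and are then tagged with ubiquitin and pulled back out, while a separate set of peroxins inserts membrane proteins. The organelle shortens very long-chain and branched fatty acids that mitochondria cannot take directly, and the oxidases that begin this pathway give off hydrogen peroxide, which catalase breaks down. NOX4 is an NADPH oxidase that itself produces hydrogen peroxide.

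The 4 control mice carried *Nox4* fl/fl alleles without Cre and the 4 NOX4-deficient mice were *MckCre:Nox4* fl/fl. Both groups were C57BL/6 males aged 21 months on a low-fat standard chow, and the labels put every library in batch 1. Cre under the *Mck* promoter acts in striated muscle fibers, so that vessels, connective tissue, immune cells and nerve in the same muscle keep *Nox4*. In a bulk sample, fewer cells of a type and less RNA per cell cannot be told apart. The libraries held between 16350548 and 19804661 counts. Muscle markers were abundant in every library, with *Acta1*, *Ckm*, *Ttn*, *Neb*, *Des* and *Mb* together at 55490 to 68100 CPM (counts relative to library size, scaled for library composition) in control and 59800 to 65820 CPM in NOX4-deficient mice.

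*Nox4* itself stood at 5.09, 2.47, 1.87 and 3.64 CPM in control mice 1 to 4 and at 1.74, 2.17, 2.21 and 2.17 CPM in NOX4-deficient mice 1 to 4. The groups overlapped, because control mouse 3 lay inside the NOX4-deficient range. The means were 3.27 ± 1.42 and 2.07 ± 0.220 CPM (SD, n = 4 each), with an adjusted p of 0.207 in edgeR's quasi-likelihood test and an exact two-sided permutation p of 0.2, where 0.0286 is the smallest that 4 against 4 mice allows. The RNA therefore did not separate the genotypes by itself, and the groups are those of the labels.

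The 31 genes spanned a wide range of levels in control muscle. Per kilobase of exon, *Ech1* (123 CPM per kb), *Phyh* (114) and *Scp2* (52.8) led the order, all of them matrix enzymes of lipid metabolism. *Pex19*, the chaperone for new membrane proteins, was the highest peroxin at 30.3 CPM per kb, followed among all members by *Hsd17b4* at 25.1 and *Abcd3* at 21.3 CPM per kb. The remaining peroxins lay between *Pex2* at 13.4 and *Pex11g* at 0.439 CPM per kb. *Hacl1* was lowest at 0.247 CPM per kb, with as few as 5 counts in 1 library. The spread between mice was small for most of the genes, with a median coefficient of variation of 10.5% in control and 13.3% in NOX4-deficient mice. *Scp2*, a thiolase and sterol carrier, varied by only 5.67% and 3.62%, whereas *Ech1* varied by 19.3% and 23.7%, so that *Ech1* and its neighbor *Phyh* in the order did not differ beyond their spread.

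**Figure D1:**
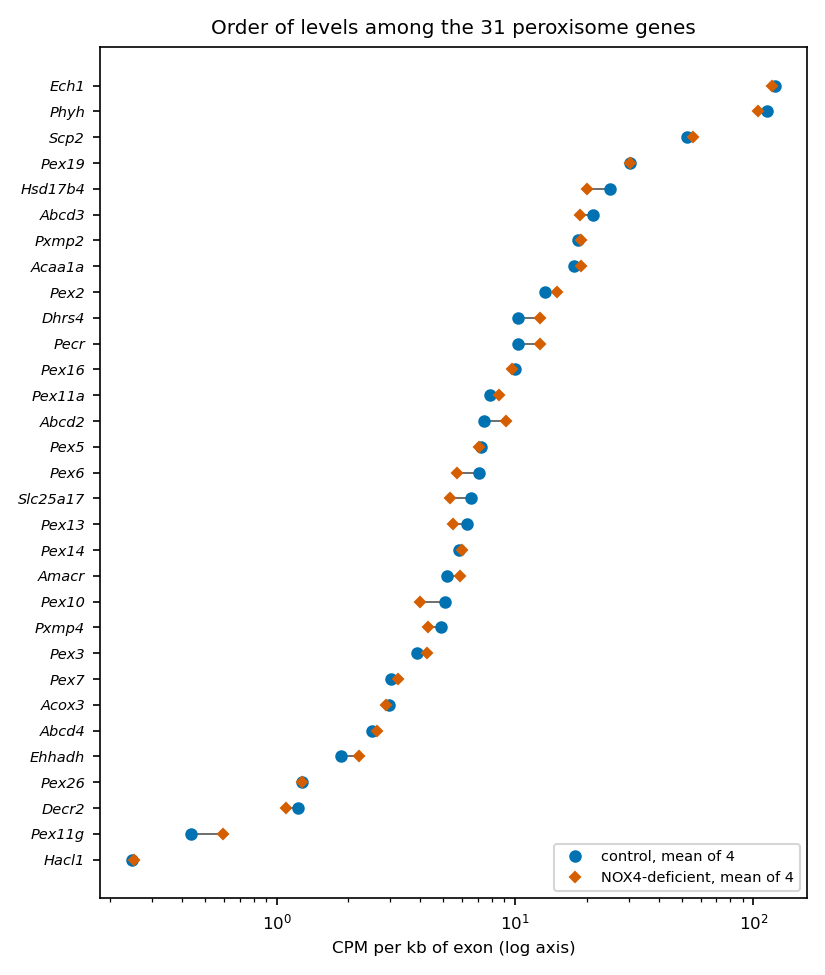
Mean level of each of the 31 peroxisomal genes in CPM per kilobase of exon (log axis), with circles for the mean of 4 control mice and diamonds for the mean of 4 NOX4-deficient mice, joined by a line. The order runs from *Ech1* at 123 to *Hacl1* at 0.247 CPM per kb in control muscle, and the distance between the means of a gene is small beside this range.

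None of the 31 genes passed the test between the genotypes. A call required an adjusted p under 0.05 together with a log2 fold change beyond 0.5 in either direction. By this rule edgeR called 0 of 31 lower and 0 of 31 higher in NOX4-deficient muscle, while 3.48% of all rows tested were called lower and 2.68% higher (6.16% in either direction). DESeq2 and pydeseq2 also called 0 members, beside 8.25% and 7.5% of the rows they tested, although DESeq2 gave *Hacl1* no adjusted p. Without the minimum fold all 3 tools again called 0 members, where edgeR passed 7.75%, DESeq2 12.1% and pydeseq2 10.7% of rows. At an unadjusted p under 0.05, 1 member was lower (*Hsd17b4*) and 1 was higher (*Pecr*), against 12.5% and 10.7% of all rows (23.2% in either direction). In 0 of 31 genes did the control and NOX4-deficient values lie apart without overlap, a pattern seen in 16.2% of all rows (8.97% lower and 7.2% higher).

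Log2 fold changes, given as NOX4-deficient over control, ran from -0.35 (*Pex10*) to 0.44 (*Pex11g*), with 14 genes below 0 and 17 above it. Their median was 0.013, beside 0.014 for all rows, and the median absolute value was 0.14, beside 0.20 for all rows. No member passed an absolute log2 fold change of 0.5, which 17.2% of all rows did. The 95% interval of the log2 fold change lay wholly within -0.5 to 0.5 for 20 of the 31 genes (38.2% of all rows) and within -1 to 1 for 30 (79.1% of all rows). *Hacl1*, the gene with the fewest counts, was the exception. The standard errors ran from 0.0886 for *Scp2* to 0.492 for *Hacl1*, and low-count genes such as *Hacl1*, *Decr2* and *Pex11g* had the widest intervals.

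**Figure D2:**
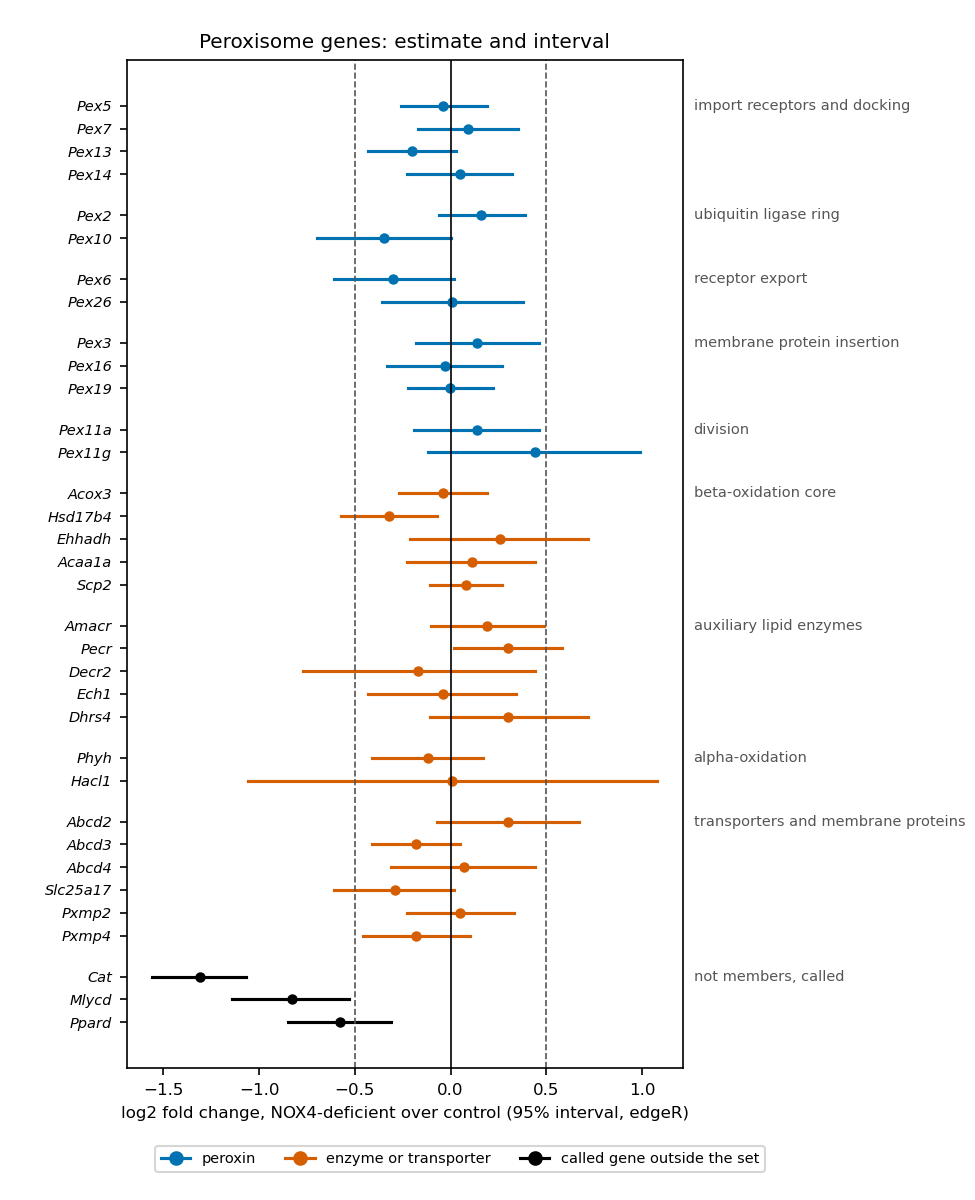
Log2 fold change of NOX4-deficient over control with its 95% interval for the 31 genes by role, peroxins and enzymes or transporters in different colors, and for *Cat*, *Mlycd* and *Ppard*, from edgeR with 4 mice per group; dashed lines stand at -0.5 and 0.5. The member estimates lie between -0.35 and 0.44, whereas *Cat* lies at -1.31 and *Mlycd* at -0.83.

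Import of matrix enzymes depends on *Pex5* and *Pex7*, the receptors for the C-terminal and N-terminal targeting signals, and on *Pex13* and *Pex14*, which form the docking site. *Pex5* was at 23.5, 22.1, 24.5 and 24.7 CPM in the controls and 21.4, 21.8, 25.2 and 24.2 CPM in NOX4-deficient mice. The ranges coincided almost completely, with a log2 fold change of -0.04 (SE 0.105, adjusted p = 0.882) and a 95% interval of the fold from 0.834 to 1.14. *Pex13* was at 24.6, 24.2, 28.1 and 27.1 CPM in the controls and 21.4, 23.3, 21.5 and 24.4 CPM in NOX4-deficient mice. Only NOX4-deficient mouse 4 and control mouse 2 kept these groups from lying apart, and the log2 fold change was -0.20 (SE 0.105, adjusted p = 0.282). *Pex7* averaged 24.6 ± 2.41 against 26.1 ± 2.98 CPM (control first, SD, n = 4 each) and *Pex14* 11.7 ± 0.921 against 12.03 ± 1.38 CPM, with adjusted p-values of 0.70 and 0.875. All 4 intervals of the import genes lay within -0.5 to 0.5.

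*Pex2* and *Pex10* encode subunits of the membrane ubiquitin ligase that marks *Pex5* for recycling. *Pex10* had the most negative estimate of the 31 genes, at 7.55, 8.65, 9.79 and 8.32 CPM in the controls and 8.54, 5.66, 6.46 and 6.33 CPM in NOX4-deficient mice. NOX4-deficient mice 2 to 4 lay below every control, and mouse 1 lay among the controls. The log2 fold change was -0.35 (SE 0.161, 95% interval -0.70 to 0.00, adjusted p = 0.218). *Pex2*, its partner, was at 29.3, 31.2, 32.7 and 28.6 CPM in the controls and 38.0, 30.7, 33.3 and 34.4 CPM in NOX4-deficient mice, and its estimate had the opposite sign (0.16, SE 0.104, adjusted p = 0.387). Neither subunit passed the test.

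Receptor export uses *Pex6*, an ATPase, and *Pex26*, its membrane anchor. *Pex6* was at 23.3, 23.5, 22.2 and 21.0 CPM in the controls and 20.8, 14.4, 22.3 and 15.9 CPM in NOX4-deficient mice. NOX4-deficient mice 2 and 4 were the low samples and the other two fell within or just below the controls (log2 fold change -0.30, SE 0.144, adjusted p = 0.243). *Pex26* was at 5.39, 4.63, 5.46 and 5.41 CPM in the controls and 4.33, 5.92, 6.20 and 4.57 CPM in NOX4-deficient mice, so that the NOX4-deficient values lay on both sides of the controls. Its log2 fold change was 0.01 (SE 0.171, adjusted p = 0.977).

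Membrane protein insertion by *Pex3*, *Pex16* and *Pex19* gave estimates between -0.03 and 0.14. *Pex19*, the most abundant peroxin, was at 104, 92.9, 97.7 and 84.8 CPM in the controls and 96.1, 84.4, 103 and 95.3 CPM in NOX4-deficient mice. The means were 94.8 ± 8.07 and 94.6 ± 7.58 CPM, and the 95% interval of the fold ran from 0.857 to 1.16 (adjusted p = 0.991). *Pex3*, the docking factor for *Pex19*, was at 9.77, 8.65, 9.47 and 6.86 CPM in the controls and 8.42, 10.2, 9.41 and 10.3 CPM in NOX4-deficient mice. The single low value was that of control mouse 4, and the log2 fold change was 0.14 (SE 0.147, adjusted p = 0.619). *Pex16* averaged 13.9 ± 1.84 and 13.6 ± 1.73 CPM (adjusted p = 0.926).

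*Pex11a* and *Pex11g* belong to the family that elongates and divides peroxisomes, and both estimates were above 0 without passing the test. *Pex11g* had the largest estimate of the 31 genes but only 1.38, 1.29, 1.07 and 1.30 CPM in the controls and 2.11, 1.37, 1.89 and 1.47 CPM in NOX4-deficient mice. NOX4-deficient mouse 2 overlapped with control mouse 1, and the 95% interval of the log2 fold change of 0.44 ran from -0.12 to 0.99 (SE 0.254, adjusted p = 0.333). *Pex11a* was at 19.1, 20.7, 16.96 and 13.3 CPM in the controls and 20.03, 15.9, 19.7 and 21.5 CPM in NOX4-deficient mice. Control mouse 4 was again the low sample (log2 fold change 0.14, SE 0.15, adjusted p = 0.638).

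Peroxisomal β-oxidation was represented by *Acox3*, an oxidase for branched acyl-CoA, *Hsd17b4* and *Ehhadh*, the D- and L-bifunctional enzymes, and the thiolases *Acaa1a* and *Scp2*. *Hsd17b4* had the smallest p of the 31 genes, at 65.2, 76.8, 69.3 and 57.7 CPM in the controls and 58.4, 47.7, 51.1 and 59.0 CPM in NOX4-deficient mice. Control mouse 4 lay below NOX4-deficient mice 1 and 4, and without that control mouse the groups would have been apart. The means were 67.2 ± 7.98 and 54.0 ± 5.56 CPM and the log2 fold change was -0.32 (SE 0.115). Its 95% interval from -0.57 to -0.07 excluded 0, but the adjusted p was 0.12 in edgeR, 0.0886 in DESeq2 and 0.0979 in pydeseq2, so that the difference did not pass the test.

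*Ehhadh*, which acts at the same steps as *Hsd17b4* on other substrates, was at 5.33, 4.68, 5.30 and 6.91 CPM in the controls and 6.74, 9.36, 5.10 and 5.34 CPM in NOX4-deficient mice. NOX4-deficient mouse 2, the lowest of all 8 samples for *Hsd17b4*, was the highest for *Ehhadh*, whose log2 fold change was 0.26 (SE 0.213, adjusted p = 0.516) and 0.04 without that mouse. *Acox3* was at 18.9, 21.7, 20.2 and 20.4 CPM in the controls and 17.6, 19.7, 20.1 and 21.5 CPM in NOX4-deficient mice. The groups overlapped along most of their range, with a 95% interval of the fold from 0.827 to 1.14 (adjusted p = 0.864). *Scp2* averaged 139.8 ± 7.93 and 148 ± 5.35 CPM, with the smallest SE of all 31 genes (log2 fold change 0.08, SE 0.0886, adjusted p = 0.645). *Acaa1a* averaged 30.95 ± 3.54 and 33.3 ± 7.11 CPM (adjusted p = 0.732). Reads from its close paralog *Acaa1b* could be counted on it, though *Acaa1b* itself averaged only 0.0952 and 0.136 CPM.

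Auxiliary enzymes prepare unusual acyl-CoA species for the cycle. *Pecr*, an enoyl-CoA reductase, was at 14.4, 13.4, 15.6 and 12.9 CPM in the controls and 17.99, 15.0, 20.2 and 16.1 CPM in NOX4-deficient mice. Control mouse 3 lay above NOX4-deficient mouse 2 and below the other three, and the log2 fold change was 0.30 (SE 0.127, 95% interval 0.02 to 0.58, adjusted p = 0.181). *Ech1*, a dienoyl-CoA isomerase also found in mitochondria, was at 186, 178, 136 and 126 CPM in the controls and 169, 109, 138 and 191 CPM in NOX4-deficient mice. The highest and the lowest of the 8 values were both NOX4-deficient mice, and the log2 fold change was -0.04 (SE 0.178, adjusted p = 0.919). *Dhrs4*, a carbonyl reductase, averaged 17.01 ± 2.74 and 21.0 ± 5.79 CPM, with NOX4-deficient mice 1 and 4 above every control and mice 2 and 3 among the controls (log2 fold change 0.30, adjusted p = 0.37). *Amacr*, the racemase for branched acyl-CoA, averaged 13.3 ± 1.21 and 15.2 ± 2.29 CPM, and *Decr2*, a dienoyl-CoA reductase, 2.82 ± 0.594 and 2.51 ± 0.882 CPM (adjusted p = 0.429 and 0.773).

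α-Oxidation removes a carbon from phytanic acid through *Phyh*, the hydroxylase, and *Hacl1*, the lyase. *Phyh* was at 182, 186, 149 and 141 CPM in the controls and 169.8, 123, 143 and 169 CPM in NOX4-deficient mice. NOX4-deficient mouse 2 was the lowest sample and the other three lay within the control range (log2 fold change -0.12, SE 0.132, adjusted p = 0.634). *Hacl1* was at 0.659, 0.257, 1.12 and 0.572 CPM in the controls and 0.662, 0.455, 0.368 and 1.17 CPM in NOX4-deficient mice. The coefficient of variation of *Hacl1* was 54.8% in control and 54.3% in NOX4-deficient mice. Its 95% interval of the fold ran from 0.481 to 2.12, so that a difference within these bounds could not be seen. Much of its exon sequence also overlaps a predicted transcript on the same strand, so that its few counts may not all be its own.

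Among the membrane proteins, *Abcd2* and *Abcd3* carry fatty acyl-CoA into the organelle, *Slc25a17* exchanges cofactors, *Pxmp2* is a channel, *Pxmp4* is a membrane protein of the peroxisome, and *Abcd4* is a family member best known for cobalamin transport at the lysosome. *Slc25a17* had the smallest p of these 6, at 11.9, 11.2, 9.63 and 12.3 CPM in the controls and 8.06, 11.2, 8.83 and 8.56 CPM in NOX4-deficient mice. NOX4-deficient mouse 2 was level with the controls and the other three were below all of them (log2 fold change -0.29, SE 0.145, adjusted p = 0.247). *Abcd2* and *Abcd3*, which differ in their preferred substrates, had estimates of opposite sign. *Abcd2* averaged 41.0 ± 9.60 in control and 50.5 ± 8.45 CPM in NOX4-deficient mice (0.30, adjusted p = 0.325, and 0.17 without control mouse 4), and *Abcd3* averaged 77.2 ± 5.62 and 68.1 ± 7.72 CPM (-0.18, adjusted p = 0.333). *Abcd4* was at 5.39, 7.98, 5.40 and 6.71 CPM in the controls and 7.22, 7.38, 5.94 and 6.16 CPM in NOX4-deficient mice. Every NOX4-deficient value lay within the control range (log2 fold change 0.07, SE 0.171, adjusted p = 0.863). *Pxmp2* averaged 19.1 ± 1.86 and 19.8 ± 2.91 CPM, and *Pxmp4* 15.2 ± 2.06 and 13.5 ± 0.978 CPM (adjusted p = 0.856 and 0.447).

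**Figure D3:**
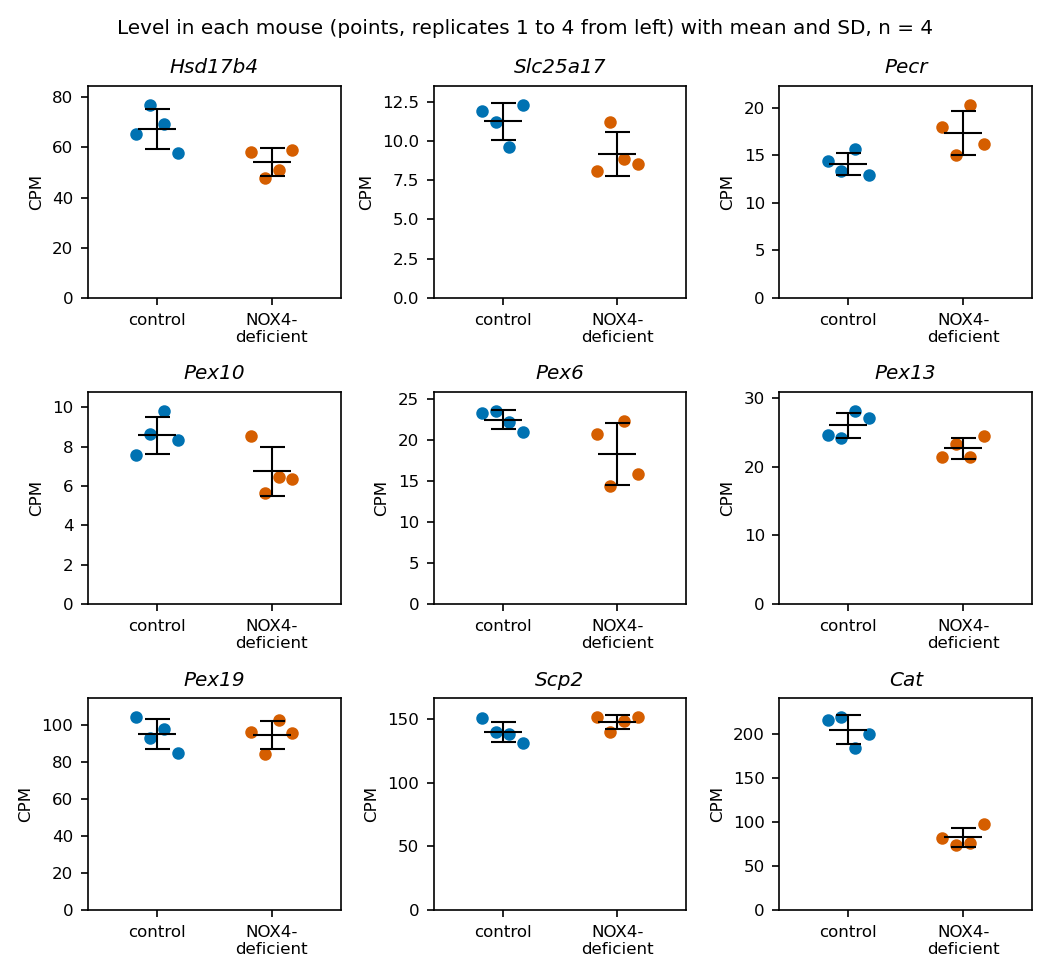
CPM of *Hsd17b4*, *Slc25a17*, *Pecr*, *Pex10*, *Pex6*, *Pex13*, *Pex19*, *Scp2* and *Cat* in each mouse, as points from replicate 1 at the left to 4 at the right, with bars for the mean and SD of the 4 mice of a genotype. The members overlap between the genotypes, as for *Hsd17b4* with 57.7 CPM in control mouse 4 and 59.0 CPM in NOX4-deficient mouse 4, whereas *Cat* does not.

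Set side by side, the peroxins and the enzymes and transporters gave calls in edgeR in 0 of 13 and 0 of 18 genes, beside 6.16% of all rows, a share at which groups of this size would hold few calls. The median log2 fold change was 0.013 for peroxins and 0.032 for enzymes and transporters, with median absolute values of 0.14 and 0.17. By sign alone, 6 peroxins were lower and 7 higher, and 8 enzymes and transporters were lower and 10 higher. The 95% interval lay within -0.5 to 0.5 for 10 of 13 peroxins and for 10 of 18 enzymes and transporters, beside 38.2% of all rows. The summed level of the peroxins ran from 268.3 to 303.4 CPM in the controls and from 260.2 to 299.5 CPM in NOX4-deficient mice. The summed level of the enzymes and transporters ran from 703.4 to 874.9 and from 696.0 to 868.9 CPM. Both sums overlapped between the genotypes along most of their range, and whether the groups of genes differed from each other was not tested.

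Of 41 further genes of the organelle outside the set, 35 were tested, and 2 fell and 0 rose, where 3.48% of all rows fell and 2.68% rose. The count is thus near the share of all rows. These 2 changes were larger than that of any of the 31 genes. Over the lists, the median absolute log2 fold change was 0.15 for the 35 genes and 0.14 for the 31. The first was *Cat*, the catalase that degrades hydrogen peroxide in the peroxisome. *Cat* was at 216, 219, 184 and 200.2 CPM in the controls and 82.0, 74.0, 76.1 and 97.7 CPM in NOX4-deficient mice. The groups were far apart, and *Cat* fell by 1.31 on the log2 scale (SE 0.113, 95% interval -1.56 to -1.07, adjusted p = 5.54e-05). The other was *Mlycd*, malonyl-CoA decarboxylase, an enzyme of peroxisomes, mitochondria and cytosol. *Mlycd* was at 136, 123, 121 and 112 CPM in the controls and 79.5, 49.1, 74.7 and 72.4 CPM in NOX4-deficient mice, again without overlap. It fell by 0.83 on the log2 scale (SE 0.14, adjusted p = 0.00476). The 95% interval of *Cat* did not reach that of any of the 31 genes, with *Hacl1* coming closest at a lower bound of -1.06. Over the 35 genes, 21 estimates were below 0 and 14 above, with a median of -0.079.

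Many genes of peroxisomal fatty acid oxidation are targets of PPAR receptors, which bind with RXR to a direct repeat of the hexamer AGGTCA. Of 8 genes of PPAR control, 1 fell and 0 rose in edgeR, beside 3.48% and 2.68% of all rows. *Ppard*, the PPAR most abundant in muscle, was at 29.4, 34.3, 31.1 and 36.3 CPM in the controls and 19.9, 19.5, 22.5 and 25.9 CPM in NOX4-deficient mice. It fell by 0.58 on the log2 scale without overlap between the groups (SE 0.123, adjusted p = 0.0153). *Ppargc1a*, the coactivator PGC-1α, was at 127, 161, 54.2 and 55.9 CPM in the controls and 27.7, 33.0, 29.5 and 61.4 CPM in NOX4-deficient mice. Control mice 1 and 2 were high and NOX4-deficient mouse 4 lay just above the other two controls, and the call depended on the tool, with an adjusted p of 0.0855 in edgeR, 0.0401 in DESeq2 and 0.0359 in pydeseq2.

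Promoter sequence was available for 24 of the 31 genes, as 28 windows from 250 bases before to 50 bases after a start site (RefSeq, build GRCm38.p6). The hexamer AGGTCA on either strand stood in the promoters of *Phyh*, *Scp2* and *Pex11g*, which is 10.7% of the member promoters beside 16.3% of all 32851 promoters in the same table. The full direct repeat is AGGTCA on both sides of any 1 base, and so itself a match to the hexamer. It was found in 0 members and in 0.0396% of all promoters. At such a share, 28 windows would rarely hold 1, so the 0 does not set the members apart. Only these exact letters within these windows were searched. The 3 member stretches are shown with that of *Cat*, because *Cat* fell and these members did not pass the test. Each is written 5′ to 3′ on the strand of the gene, with the hexamer or its reverse complement in capitals.
*Phyh*, chr2:4919016-4919045, plus strand, after the start site: tgccgtaagttaagtgTGACCTgggcgcag
*Scp2*, chr4:108118639-108118668, minus strand, before the start site: gtctaacacagtAGGTCAaaagaacccata
*Pex11g*, chr8:3467804-3467833, minus strand, before the start site: aacaggcttagaAGGTCAttctgggtgtcc
*Cat*, chr2:103485340-103485369, minus strand, before the start site: tgtgactctcagAGGTCAgagaacaccagc
The hexamer was thus present before the start sites of *Cat*, at -1.31, *Scp2*, at 0.08, and *Pex11g*, at 0.44 on the log2 scale. Such a match describes these letters only, and no binding was measured.

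Individual libraries of both genotypes stood low across many of the 31 genes. Control mouse 4 was the lowest of its group for 17 of the 31 genes, and NOX4-deficient mouse 2 the lowest of its group for 18. The summed level of the 31 genes ran from 971.6 to 1161 CPM in the controls and from 956.2 to 1162 CPM in NOX4-deficient mice. As the median over the members of log2 CPM minus the mean of the 8 libraries, control mice 1 to 4 stood at 0.05, 0.02, 0.02 and -0.13. NOX4-deficient mice 1 to 4 stood at 0.12, -0.10, 0.01 and 0.01. The high and the low libraries thus occurred in both genotypes. Several estimates were smaller in size with 1 mouse left out. Without control mouse 4, the log2 fold change of *Pex3* was 0.04 and that of *Pex11a* 0.02. Without NOX4-deficient mouse 2, that of *Phyh* was -0.03 and that of *Pex6* -0.19. *Acaa1a* stood at 0.01 without NOX4-deficient mouse 1, *Pex7* at 0.02 without NOX4-deficient mouse 4, and *Pxmp4* at -0.10 without control mouse 1.

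**Figure D4:**
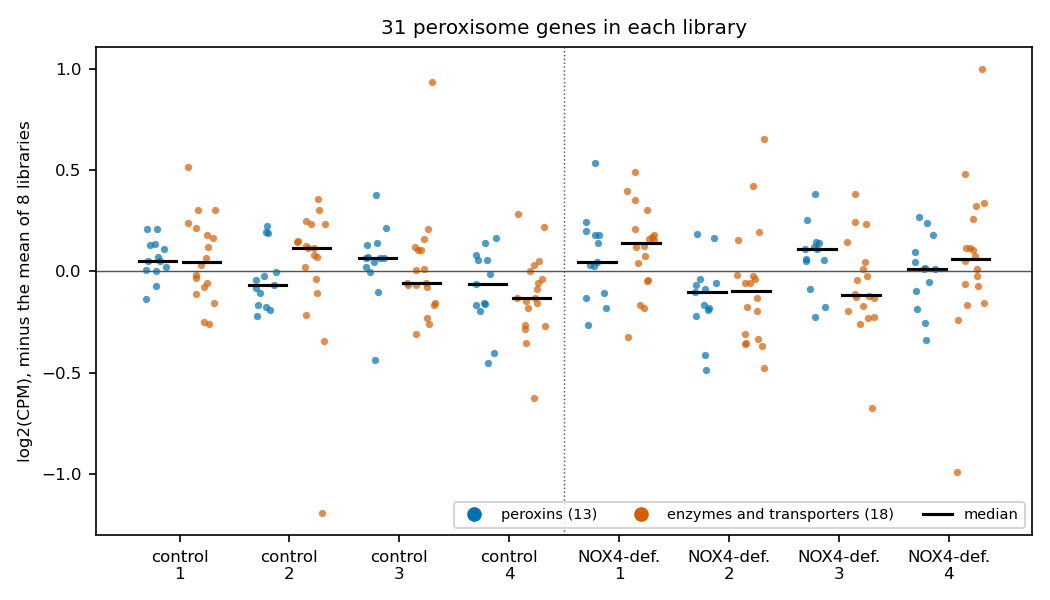
Log2 CPM of each of the 31 genes minus its mean over the 8 libraries, by mouse, with 1 point per gene, peroxins and enzymes or transporters side by side, and lines at their medians. The enzymes and transporters have medians from -0.13 in control mouse 4 to 0.14 in NOX4-deficient mouse 1, and both groups of genes have a median of -0.10 in NOX4-deficient mouse 2.

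The levels of short and long transcripts also differed between libraries. Over the 1607 rows with exons shorter than 1.5 kb, the same measure was 0.24 in NOX4-deficient mouse 1, -0.20 in mouse 2, 0.17 in mouse 3 and -0.07 in mouse 4. Over the 3120 rows longer than 5 kb it was -0.19, 0.17, -0.11 and 0.08 in these mice. In control mice 1 to 4, the short rows stood at 0.06, -0.07, 0.02 and -0.11. Of the 31 genes, 5 were shorter than 1.5 kb and 3 longer than 5 kb. With the trend on length removed in each library, edgeR again called 0 of the 31 genes, while 930 rows were called in all.

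Markers of other cells and of fiber types gave no call in any list. The summed level of 8 adipocyte markers ran from 165.1 to 304.3 CPM in the controls and from 166.0 to 213.3 CPM in NOX4-deficient mice. *Fabp4* made up most of this sum, and 6 of the 8 estimates were above 0 (median log2 fold change 0.24). Brown adipocyte markers (*Ucp1*, *Cidea* and *Elovl3*) did not pass the filter on low counts and summed to at most 2.098 CPM. The 7 slow-fiber markers ran from 282.5 to 599.5 and from 299.8 to 1116 CPM, with all 7 estimates above 0 (median log2 fold change 0.66), and *Myh2*, of the oxidative fast fibers, from 620.7 to 1252 and from 538.0 to 1546 CPM. Fast-fiber markers ran from 104000 to 126500 and from 112200 to 131400 CPM. Endothelial markers ran from 187.7 to 228.5 and from 205.9 to 225.7 CPM, fibroblast and tendon markers from 344.1 to 592.7 and from 319.3 to 527.4 CPM, and macrophage and leukocyte markers from 8.319 to 22.18 and from 8.971 to 14.09 CPM. *Dcn* (log2 fold change -0.32) carried most of the fibroblast and tendon sum, while 5 of the 7 markers had estimates above 0 (median 0.30), with *Col1a1* at 0.76 and *Tnmd* at 0.78 (adjusted p = 0.213 and 0.175). Of the macrophage and leukocyte markers, 6 were tested, with 5 estimates below 0 and 1 above (median log2 fold change -0.45). *Ptprc* (-0.90, adjusted p = 0.123) was lower without overlap, as were 8.97% of all rows, and *Adgre1* was at -0.94 (adjusted p = 0.162). All of the ranges above overlapped between the genotypes. The part of these markers in the levels of the 31 genes was not tested.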

How the data were processed

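RNA from gastrocnemius muscle of 8 mice, 4 per genotype, was sequenced by the authors as unstranded paired-end poly(A) libraries. They deposited these data as unnormalized read counts by gene from the nf-core RNA-seq pipeline. STAR and GRCm39 are named in the submitters' processing notes, and the study's methods mention the pipeline's matrices of counts per feature, while the annotation and the strand setting of the counting are not given in the sources used here. All 8 columns matched a sample by name. Groups came from the labels. The study's methods give separate mice per genotype.

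The 31 genes and the other lists were chosen with earlier results of these data known. The deposited counts went into edgeR 4.0.16 under R 4.3.3, with TMM scaling, filterByExpr, estimateDisp, robust glmQLFit and glmQLFTest on all 8 samples with genotype alone, with p-values adjusted by the Benjamini-Hochberg method over 12725 rows. A call needed an adjusted p under 0.05 as well as a log2 fold change beyond 0.5 in either direction. CPM values were TMM-scaled, errors are SDs over 4 mice, and the 95% intervals of log2 fold changes used edgeR's total degrees of freedom. No pair of libraries agreed within sampling noise. The fit was tested on simulated data. All members were named, with the 8 values for the smallest and the largest p of each functional class and for called genes outside the set. Members named for the smallest p, and *Ppargc1a*, had values that were seen before the text was written.

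The alternatives were DESeq2 1.42.0, pydeseq2 0.5.4, other size factors, filters and thresholds, a fit that was not robust, the replicate number as a block and each mouse left out in turn. Removal of a trend on exon length (GENCODE M21, GRCm38, matched by symbol) was added after the data were seen. As the libraries are unstranded, *Pex3*, *Pex11g*, *Pex13*, *Pex14*, *Acox3* and *Pxmp2*, whose exons overlap a gene on the opposite strand, can hold reads of that gene. Protein sequences were not analysed here. Some other genes of the organelle are not reported here.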

Additional observations from a re-analysis of the deposited data

Results flagged for a closer look

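In 3 of 72 groups of 4 mice tested (the members and 5 further genes, in each genotype), 1 mouse stood apart from the other three by Dixon's 95% criterion, where chance gives about 1 in 20, or 3.6. *Pex26* was at 4.63 CPM in control mouse 2, below the other controls. *Pxmp2* was at 21.9 CPM in control mouse 1, above the other controls. *Nox4* was at 1.74 CPM in NOX4-deficient mouse 1, below the other NOX4-deficient mice.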

How the results depend on the processing

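Counts of called members stayed at 0 of 31 under all 19 alternatives, as did the 2 calls among other peroxisomal genes. Over all rows, 784 were called, against 252 at an adjusted p under 0.01, 499 to 712 with 1 mouse left out (499 without control mouse 4), 999 in DESeq2, 1009 in pydeseq2 and 930 with the length trend removed. The adjusted p of *Hsd17b4* ran from 0.0667 to 0.281. *Cat* (-1.39 to -1.26), *Mlycd* (-0.90 to -0.70) and *Ppard* (-0.65 to -0.52) stayed called with any mouse left out. Of 526 member values under 17 alternative fits, 497 kept their sign and 29, in 11 members, did not. These were small estimates, none above 0.17 in absolute value. *Pex19* turned to 0.02 with at least 10 counts in every sample, to 0.01 with library size only and to 0.0014 with the length trend removed, and *Pxmp2* to -0.02 with that trend removed. With 1 mouse left out, the log2 fold change ranged from -0.07 to 0.01 for *Pex5*, -0.01 to 0.11 for *Pex14*, -0.11 to 0.03 for *Pex16*, -0.05 to 0.05 for *Pex19*, -0.06 to 0.11 for *Pex26*, -0.07 to 0.02 for *Acox3*, -0.01 to 0.19 for *Abcd4*, -0.39 to 0.43 for *Hacl1*, -0.32 to 0.06 for *Decr2*, -0.16 to 0.09 for *Ech1* and -0.04 to 0.12 for *Pxmp2*. The cause was not tested.

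Mice with the same replicate number deviated from their group means with correlations of 0.223, 0.147, 0.041 and 0.041. Between mice with different numbers, the correlations ran from -0.215 to 0.188. Nothing in the labels says that the numbers mark pairs, so they were not taken as pairs. With the replicate number as a block, 933 rows and 0 members were called. No member name was repeated in the table, so that summing repeated rows gave no value. *Hacl1* had none with at least 10 counts in every sample.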

Other observations

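Further genes of the organelle did not pass the call but had groups that lay apart. *Eci2*, an enoyl-CoA isomerase, averaged 56.0 ± 1.15 CPM in the controls and 43.4 ± 5.35 CPM in NOX4-deficient mice without overlap (log2 fold change -0.37, adjusted p = 0.0536 in edgeR and 0.0168 in DESeq2). *Lonp2*, the peroxisomal protease, was also lower without overlap (adjusted p = 0.194 in edgeR and 0.171 in DESeq2). So was *Nbr1*, an autophagy receptor that takes up peroxisomes, at a log2 fold change of -0.36. Its adjusted p was 0.0796 in edgeR, 0.038 in DESeq2 and 0.0428 in pydeseq2. *Tmem135* was higher without overlap (adjusted p = 0.263 in edgeR). Groups that did not overlap numbered 6 of the 35 tested genes, *Cat* and *Mlycd* included, with 5 lower and 1 higher, beside 16.2% of all rows (8.97% lower and 7.2% higher), so that the total was near the share of all rows. Among genes of PPAR control, *Rxra* (0.26, adjusted p = 0.122) and *Ppargc1b* (0.70, adjusted p = 0.117) were higher without overlap, and *Ppara* was at -0.99 (adjusted p = 0.377).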
